A study of Caenorhabditis elegans with 24 samples.

Results

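The 8 genes described here encode enzymes that make or break down trehalose (tps-1, tps-2, tre-1, tre-2 and tre-3), run the glyoxylate cycle (icl-1) or make the precursor of glycerol (gpdh-1 and gpdh-2). They were chosen by these WormBase symbols, and all 8 were among the 21689 genes with values. The sequenced RNA came from whole day-1 adults of Caenorhabditis elegans kept at 20 °C with OP-50-1 as food, and each of 6 genotypes had 4 libraries. Animals with daf-16(mu86), daf-2(e1370) and also htz-1(bon101) are called the triple mutant below, and those with daf-2(e1370) and htz-1(bon101) the htz-1 double mutant. The third genotype with the allele carried htz-1(bon101) alone. The genotypes without it were daf-16(mu86) with daf-2(e1370), called the daf-16 double mutant, daf-2(e1370) alone, and the wild-type strain N2. Each of 4 labelled batches held 1 library of every genotype, and the replicate number is the batch number. No genotype carried mu86 alone, so every statement on daf-16 concerns animals that also carried e1370. The alleles are present in every cell and whole animals were lysed, so a value sums all tissues, the germline and any embryos held in the animal.

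Trehalose is a disaccharide of glucose that nematodes use as a circulating sugar, an energy store and a protectant against desiccation and osmotic stress. Trehalose-6-phosphate synthases (tps-1, tps-2) make its phosphate, the phosphatase gob-1 completes it, and trehalases (the tre genes) split it into glucose. The glyoxylate cycle, which animals in general lack and nematodes have, bypasses the decarboxylating steps of the tricarboxylic acid cycle and lets carbon from fat reach sugar. Its bifunctional isocitrate lyase and malate synthase is encoded by icl-1. Glycerol-3-phosphate dehydrogenases (gpdh-1, gpdh-2) feed glycerol synthesis. Glycerol is the main osmolyte that C. elegans builds up in hypertonic surroundings, where gpdh-1 is strongly induced in intestine and hypodermis. As for the mutated genes, daf-2 codes for the insulin/IGF-1 receptor, daf-16 for the FOXO transcription factor below it, and htz-1 for the histone variant H2A.Z. Trehalose synthesis and the glyoxylate cycle are known as pathways raised in long-lived daf-2 mutants.

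The values were regularized log2 values (rlog), called levels below, and the read depth behind them is unknown. Within a genotype the correlation of libraries across genes was 0.949 to 0.991, so no library was a copy of another. The gene-level htz-1 values do not check the bon101 label, since the sources used here do not give what the allele changes. They were 11.20 to 11.70 in the 12 libraries with the allele, against 10.62 to 11.30 in the 12 without it. For daf-16 the averages were 9.32 in the triple mutant and 9.87 in the daf-16 double mutant, below the 10.17 of the htz-1 double mutant, 9.91 of htz-1, 10.32 of daf-2 and 10.74 of wild type. A set of 19 DAF-16 target genes, chosen with earlier results of these libraries known, had 8 members higher and 4 lower in daf-2 than in wild type, and 4 higher and 9 lower in the daf-16 double mutant than in daf-2. It had 8 higher and 2 lower in htz-1 than in wild type, where 51.0% of all genes were called, against 12.4% and 25.7% in the 2 comparisons before. All 8 enzymes passed the filter for testing, a mean level of at least 3, as did 14482 genes in all.

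Among the 8 enzymes, gpdh-1 moved most. Its level was lower in daf-2 than in wild type and highest in the daf-16 double mutant, and the htz-1 allele lowered it in wild type and in the daf-16 double mutant but not in daf-2. The level of gpdh-2 was higher with the htz-1 allele than without it in each of 3 backgrounds. The level of tps-1 was higher in daf-2 than in wild type, higher again in the htz-1 double mutant, and averaged 8.90 and 8.91 in the triple and the daf-16 double mutant, beside 8.92 in wild type. For tre-3 the order was the other way round, with the highest level in the daf-16 double mutant and the lowest in the htz-1 double mutant.

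**Figure D1:**
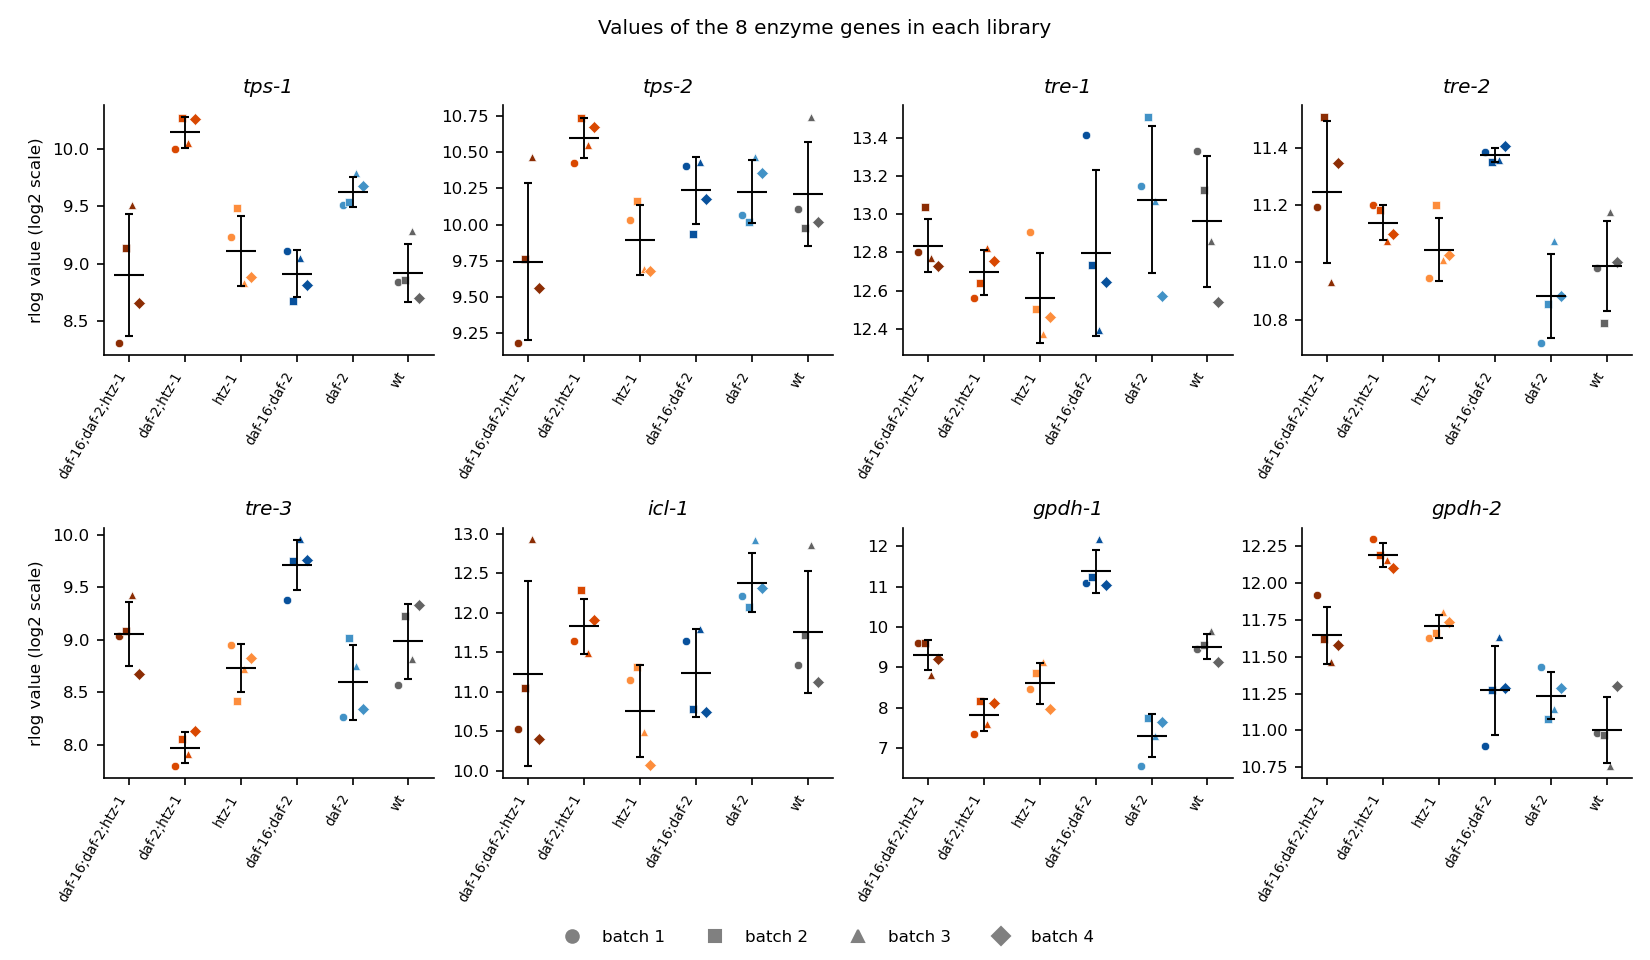
Level (rlog) of each of the 8 enzymes in every library, by genotype, with the marker shape giving the batch and the black bar the mean ± SD of 4 libraries. The 4 daf-16;daf-2 libraries of gpdh-1 sit between 11.04 and 12.18, above all other libraries, and the 4 daf-2;htz-1 libraries of tps-1 sit between 10.002 and 10.26, above all other libraries.

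The 2 trehalose-6-phosphate synthase genes lie on different chromosomes. The gene tps-1 (WBGene00006602) spans X:17467121-17474534 on the minus strand of WBcel235 and is protein coding with 2 transcripts. Its levels in batches 1 to 4 were 8.31, 9.13, 9.51 and 8.66 in the triple mutant, 10.002, 10.26, 10.05 and 10.25 in the htz-1 double mutant and 9.23, 9.48, 8.84 and 8.89 in htz-1. They were 9.11, 8.68, 9.05 and 8.82 in the daf-16 double mutant, 9.51, 9.53, 9.79 and 9.67 in daf-2 and 8.84, 8.85, 9.28 and 8.701 in wild type. All libraries of the htz-1 double mutant stood above every other genotype. Next came daf-2, above all libraries of htz-1, the daf-16 double mutant and wild type but level with triple-mutant library 3. These 4 genotypes overlapped one another, with means of 8.90 to 9.11. The spread was widest in the triple mutant, with an SD of 0.53 against 0.13 to 0.30 in the other genotypes.

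In daf-2 the level of tps-1 was 9.63 ± 0.13, against 8.92 ± 0.25 in wild type (SD, n = 4 each), a difference of 0.71 ± 0.20 (SE), or 1.63-fold (limma, adjusted p = 0.0209), in the same direction in 4 of 4 batches. It fell to 8.91 ± 0.20 in the daf-16 double mutant, 0.71 ± 0.20 below daf-2 (difference -0.71, adjusted p = 0.0126, limma). With the htz-1 allele in the daf-2 background it was 10.14 ± 0.14, against 9.63 ± 0.13 in daf-2 itself, a difference of 0.52 ± 0.20 (adjusted p = 0.0428, limma, higher in 4 of 4 batches). Compared with htz-1, the htz-1 double mutant was 1.03 ± 0.20 higher, or 2.05-fold (adjusted p = 0.000643, limma), and the triple mutant was below the htz-1 double mutant by a difference of -1.24 ± 0.20 (adjusted p = 5.05e-05, limma). Without e1370, htz-1 averaged 9.11 ± 0.30 and wild type 8.92 ± 0.25, which did not pass the test. The difference of daf-2 from wild type lost its call when wild-type library 2 or 4, daf-2 library 3, or batch 2 or 4 was left out (0.62 to 0.71, adjusted p 0.0506 to 0.168, limma). That of the daf-16 double mutant from daf-2 lost it without batch 2 or 4 (adjusted p 0.0646 and 0.0823, limma). The difference between the htz-1 double mutant and daf-2 lost its call in 13 of 21 alternatives (0.45 to 0.56, adjusted p 0.0509 to 0.164, limma), among them those without library 1, 2 or 4 of daf-2 and without any library of the htz-1 double mutant.

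The gene tps-2 (WBGene00006603) spans II:14600902-14610554 on the plus strand and has 2 transcripts. It shares 1731 bases with F19H8.2 on the opposite strand and 1871 with arl-3 on its own strand. These are overlaps of whole gene spans, and whether any reads were shared is unknown. SMART-Seq2 does not mark strand, so strand could not help to assign such reads. The level of arl-3 was 6.69 in htz-1 and 3.98 to 5.28 in the other genotypes, and that of F19H8.2 was 6.80 to 7.19 in all 6. The levels of tps-2 in batches 1 to 4 were 9.18, 9.76, 10.47 and 9.56 in the triple mutant, 10.43, 10.74, 10.55 and 10.67 in the htz-1 double mutant and 10.03, 10.16, 9.70 and 9.68 in htz-1. They were 10.40, 9.93, 10.43 and 10.18 in the daf-16 double mutant, 10.07, 10.02, 10.46 and 10.36 in daf-2 and 10.11, 9.97, 10.75 and 10.02 in wild type. Neighbouring genotypes in the order of the means all overlapped, from 10.60 ± 0.14 in the htz-1 double mutant down to 9.74 ± 0.54 in the triple mutant.

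Unlike tps-1, tps-2 averaged nearly the same in the 3 genotypes without the htz-1 allele, at 10.24 ± 0.23 in the daf-16 double mutant, 10.23 ± 0.22 in daf-2 and 10.21 ± 0.36 in wild type (SD, n = 4 each). In the genotypes with the allele, the htz-1 double mutant was 0.70 ± 0.21 above htz-1, or 1.63-fold, with no overlap (limma, adjusted p = 0.0203). The triple mutant was lower than the htz-1 double mutant by a difference of -0.85 ± 0.21, with overlap only at its library 3 (adjusted p = 0.00355, limma). The call against htz-1 was lost with each library centred on its median (0.63, adjusted p = 0.0501, limma), without library 2 or 4 of the htz-1 double mutant, without htz-1 library 3 or 4 and without batch 2 or 4 (0.61 to 0.75, adjusted p up to 0.181). The call of the triple mutant against the htz-1 double mutant was lost only without batch 4, among 21 alternatives (-0.77, adjusted p = 0.0597, limma). Between the triple mutant and the daf-16 double mutant the difference was -0.49 ± 0.21 (adjusted p = 0.0589, limma), and with batch as a replicate block the adjusted p was 0.0459. Triple-mutant library 3 carried the highest tps-2 level of its genotype, and without it this difference was -0.73 (adjusted p = 0.00267, limma).

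Of the 3 trehalase genes, tre-2 and tre-3 were both called higher in the daf-16 double mutant than in daf-2, and tre-1 was not. The gene tre-1 (WBGene00006607, I:6554729-6558665, plus strand) lay between 12.37 and 13.51 in all 24 libraries. Neighbouring genotypes all overlapped, and it passed the test in none of the 10 comparisons. Its means were 12.83 ± 0.14 in the triple mutant, 12.70 ± 0.12 in the htz-1 double mutant, 12.56 ± 0.24 in htz-1, 12.80 ± 0.44 in the daf-16 double mutant, 13.08 ± 0.39 in daf-2 and 12.96 ± 0.34 in wild type (SD, n = 4 each). The largest of its pairwise differences was that of htz-1 from wild type, -0.40 ± 0.21 (adjusted p = 0.111, limma, lower in 4 of 4 batches), which passed only without wild-type library 4 (-0.54, adjusted p = 0.0394). The difference of the htz-1 double mutant from daf-2, -0.38 ± 0.21 (adjusted p = 0.15, limma), passed only without daf-2 library 4 (-0.55, adjusted p = 0.0443).

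The gene tre-2 (WBGene00006608, IV:6876731-6883442, minus strand, 3 transcripts) had levels of 11.38, 11.35, 11.36 and 11.40 in batches 1 to 4 of the daf-16 double mutant, against 10.72, 10.85, 11.07 and 10.88 in daf-2 and 10.98, 10.79, 11.18 and 11.002 in wild type. The 4 daf-16 double mutant libraries were nearly identical and lay above all daf-2 and wild-type libraries. The difference from daf-2 was 0.49 ± 0.12, or 1.41-fold (limma, adjusted p = 0.00562), and that from wild type was 0.39 ± 0.12 (adjusted p = 0.15, limma). The call against daf-2 was lost with libraries centred on their median (0.33, adjusted p = 0.129, limma) and without batch 1 or 4 (0.43 and 0.48). With the htz-1 allele tre-2 had means of 11.25 ± 0.25 in the triple mutant, 11.14 ± 0.06 in the htz-1 double mutant and 11.04 ± 0.11 in htz-1, and no comparison that involved these genotypes passed the test. Under quantile normalization the htz-1 double mutant was 0.43 above daf-2 (adjusted p = 0.00248, limma).

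The gene tre-3 (WBGene00006609, V:11709769-11715903, minus strand, 2 transcripts) showed the widest range of the trehalases. Its levels in batches 1 to 4 were 9.03, 9.09, 9.43 and 8.68 in the triple mutant, 7.80, 8.05, 7.91 and 8.13 in the htz-1 double mutant and 8.95, 8.42, 8.73 and 8.83 in htz-1. They were 9.38, 9.75, 9.96 and 9.77 in the daf-16 double mutant, 8.27, 9.02, 8.75 and 8.34 in daf-2 and 8.57, 9.22, 8.82 and 9.33 in wild type. All 4 libraries of the htz-1 double mutant lay below every library of the other 5 genotypes. The daf-16 double mutant libraries lay above every library of the other genotypes, except that library 1, at 9.38, was below triple-mutant library 3, at 9.43.

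The daf-16 double mutant averaged 9.71 ± 0.24 for tre-3, against 8.60 ± 0.35 in daf-2 (SD, n = 4 each), a difference of 1.12 ± 0.20, or 2.17-fold (limma, adjusted p = 0.000222). In the htz-1 series the triple mutant was likewise above the htz-1 double mutant, by 1.08 ± 0.20 or 2.12-fold (adjusted p = 0.000194, limma). Both rises appeared in 4 of 4 batches, with no overlap, and passed in every alternative tried. The htz-1 allele lowered tre-3 in daf-2 (7.97 ± 0.15 in the htz-1 double mutant, against 8.60 ± 0.35 in daf-2, difference -0.62 ± 0.20, adjusted p = 0.0145, limma). It also lowered it in the daf-16 double mutant (9.06 ± 0.31 in the triple mutant, against 9.71 ± 0.24 in the daf-16 double mutant, with overlap, difference -0.66 ± 0.20, adjusted p = 0.00802). In wild type the allele gave 8.73 ± 0.23, against 8.99 ± 0.35 without it, a difference of -0.25 ± 0.20 that did not pass the test (adjusted p = 0.296, limma). The htz-1 effect on tre-3 was not shown to differ between backgrounds, since the difference of the effects in daf-2 and wild type was -0.37 ± 0.28 (adjusted p = 0.431, limma). The htz-1 double mutant was also below htz-1, by a difference of -0.76 ± 0.20 (adjusted p = 0.00799, limma). The fall in daf-2 lost its call without daf-2 library 2 (-0.48, adjusted p = 0.0658) and without batch 2 or 3, and that in the daf-16 double mutant without batch 4 (-0.51, adjusted p = 0.0898, limma). Within genotypes the tre-3 level moved with the median of all tested genes in the library (r = 0.727 over the deviations of 24 libraries from their genotype means). With each library centred on that median, all 5 tre-3 calls passed the test. Most of the called ones among the 19 intestinal markers moved in the same directions. Against daf-2, 10 were higher and none lower in the daf-16 double mutant, and in the triple mutant against the htz-1 double mutant 13 were higher and 1 lower. With the htz-1 allele 10 were lower and 1 higher in daf-2, and 11 lower and 4 higher in the daf-16 double mutant. Counts of other markers higher and lower follow in the same order of comparisons. For 14 tested hypodermal markers they were 1 and 0, 4 and 0, 0 and 6, and 3 and 5. For 29 sperm markers they were 16 and 0, 0 and 12, 0 and 29, and 0 and 29. For 20 muscle markers they were 9 and 0, 0 and 0, 8 and 0, and 2 and 3. For 18 tested neuronal markers they were 0 and 0, 1 and 6, 11 and 0, and 6 and 1. For 21 oocyte and germline markers they were 0 and 4, 4 and 0, 0 and 4, and 6 and 1. For 11 tested embryo markers they were 1 and 2, 7 and 1, 4 and 1, and 7 and 0. Of all 14482 genes 2319 were higher in the daf-16 double mutant than in daf-2. In the triple mutant 1853 were higher than in the htz-1 double mutant. With the allele 2918 were lower in daf-2 and 3514 in the daf-16 double mutant. Within genotypes the tre-3 level had r = -0.25 with the intestinal, -0.54 with the muscle and -0.61 with the oocyte and germline markers (24 libraries). It had 0.45 with the hypodermal, 0.37 with the embryo, 0.34 with the neuronal and 0.11 with the sperm markers. The part of these tissues in the tre-3 differences was not tested. In whole animals, fewer cells of a type and less RNA per cell cannot be told apart.

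The glyoxylate enzyme gene icl-1 (WBGene00001564, V:724332-728004, minus strand, 2 transcripts) had levels in batches 1 to 4 of 10.53, 11.05, 12.93 and 10.41 in the triple mutant, 11.65, 12.29, 11.49 and 11.92 in the htz-1 double mutant and 11.15, 11.32, 10.50 and 10.07 in htz-1. They were 11.65, 10.78, 11.80 and 10.75 in the daf-16 double mutant, 12.22, 12.07, 12.93 and 12.31 in daf-2 and 11.34, 11.72, 12.86 and 11.12 in wild type. Batch 3 gave the highest level in the triple mutant, the daf-16 double mutant, daf-2 and wild type, but not in the htz-1 double mutant or htz-1. The order of the means was 12.38 ± 0.38 in daf-2, 11.83 ± 0.35 in the htz-1 double mutant, 11.76 ± 0.77 in wild type, 11.24 ± 0.56 in the daf-16 double mutant, 11.23 ± 1.17 in the triple mutant and 10.76 ± 0.58 in htz-1 (SD, n = 4 each), and neighbours in it all overlapped.

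With this spread icl-1 passed the test in none of the 10 comparisons in the fit to all libraries with no batch term, but 4 of them passed under some of the 21 alternatives. The level in daf-2 was higher than in wild type in 4 of 4 batches, by 0.07 to 1.19, but the difference of 0.62 ± 0.43 did not pass (adjusted p = 0.384, limma). The daf-16 double mutant lay below daf-2 with no overlap, by a difference of -1.14 ± 0.43 (adjusted p = 0.0541, limma), and with batch as a replicate block the adjusted p was 0.0283. It also passed with libraries centred on their median (0.027), quantile normalization (0.0394), array weights (0.00551) and only the groups compared (0.0135), in all in 7 of 21 alternatives (adjusted p, limma). The difference of htz-1 from wild type was -1.001 ± 0.43 (adjusted p = 0.0555, and 0.0289 with the replicate block, limma), lower in 4 of 4 batches, and it passed in 6 of 21 alternatives. Against htz-1, the htz-1 double mutant was 1.08 ± 0.43 higher with no overlap (adjusted p = 0.0832, and 0.0444 with the replicate block, limma), and this passed in 4 of 21 alternatives. Against the htz-1 double mutant the triple mutant differed by -0.61 ± 0.43 (adjusted p = 0.304, limma), and without its library 3 by -1.17 (adjusted p = 0.016, limma). With array weights the adjusted p was 0.00307. The same comparison without batch 3 of all genotypes gave -1.29 (adjusted p = 0.00372, limma).

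The gene gpdh-1 (WBGene00009824) spans I:14075837-14078211 on the plus strand, and shares 73 bases with gadr-6 on the opposite strand. The level of gadr-6 averaged 8.54, 7.35 and 8.56 in the triple mutant, the htz-1 double mutant and htz-1, against 6.79, 6.84 and 7.25 in the daf-16 double mutant, daf-2 and wild type. The levels of gpdh-1 in batches 1 to 4 were 9.61, 9.60, 8.81 and 9.20 in the triple mutant, 7.34, 8.15, 7.60 and 8.12 in the htz-1 double mutant and 8.47, 8.85, 9.12 and 7.96 in htz-1. They were 11.10, 11.23, 12.18 and 11.04 in the daf-16 double mutant, 6.55, 7.74, 7.29 and 7.64 in daf-2 and 9.44, 9.56, 9.90 and 9.14 in wild type. The daf-16 double mutant stood above all other genotypes and daf-2 below all of htz-1, wild type and the triple mutant. Libraries of the htz-1 double mutant overlapped daf-2 and, through htz-1 library 4, also htz-1.

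Between the extremes, gpdh-1 averaged 11.39 ± 0.53 in the daf-16 double mutant, against 7.30 ± 0.54 in daf-2 (SD, n = 4 each), a difference of 4.08 ± 0.29, or 16.9-fold (limma, adjusted p = 7.73e-10). In daf-2 it was below the 9.51 ± 0.32 of wild type, by a difference of -2.21 ± 0.29, or 0.217-fold (adjusted p = 1.11e-05, limma). These 2 comparisons share the daf-2 libraries. The daf-16 double mutant was not at the wild-type level but above it, by 1.88 ± 0.29, or 3.67-fold (adjusted p = 0.000569, limma, in 4 of 4 batches and with no overlap). With the htz-1 allele the same order was narrower, with 9.30 ± 0.38 in the triple mutant, against 7.80 ± 0.40 in the htz-1 double mutant, a difference of 1.50 ± 0.29, or 2.83-fold (adjusted p = 0.000391, limma). The htz-1 double mutant was below htz-1 by a difference of -0.80 ± 0.29 with overlap (adjusted p = 0.0574, limma), and with batch as a replicate block the adjusted p was 0.0454. Those of the 19 intestinal markers that were called again moved in the same directions. In daf-2 9 were lower than in wild type and none higher, and in the daf-16 double mutant 10 were higher than in daf-2 and none lower. Of all 14482 genes 862 were lower in daf-2 and 2319 higher in the daf-16 double mutant. The mean level of the 19 was 13.62 to 13.97 in the 4 daf-16 double mutant libraries, 12.65 to 12.87 in daf-2 and 13.35 to 13.89 in wild type. Muscle and sperm markers moved likewise, with 8 of 20 and 5 of 29 lower in daf-2 than in wild type, 9 of 20 and 16 of 29 higher in the daf-16 double mutant than in daf-2, and none the other way. The mean level of the 20 muscle markers was 11.36 to 12.05 in the daf-16 double mutant, 10.67 to 10.99 in daf-2 and 11.34 to 12.28 in wild type. That of the 29 sperm markers was 11.72 to 12.48 in the daf-16 double mutant, 9.71 to 11.67 in daf-2 and 11.43 to 12.25 in wild type. Of 14 tested hypodermal markers none was called in daf-2 against wild type, and 1 was higher in the daf-16 double mutant than in daf-2. None of 18 tested neuronal markers was called in either comparison. Of 21 oocyte and germline markers 1 was higher in daf-2, and 4 were lower and none higher in the daf-16 double mutant. Of 11 tested embryo markers 1 was higher in daf-2, and 1 was higher and 2 lower in the daf-16 double mutant. Within genotypes the gpdh-1 level had r = 0.606 with the neuronal, 0.490 with the sperm, 0.471 with the muscle and 0.174 with the intestinal markers (24 libraries). It had 0.177 with the hypodermal, 0.047 with the oocyte and germline and -0.249 with the embryo markers. None of the intestinal, muscle or sperm markers had a mean below 1, and the part of any tissue in the gpdh-1 differences was not tested.

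The gene gpdh-2 (WBGene00010778, III:9854074-9859183, minus strand, 4 transcripts) had levels in batches 1 to 4 of 11.92, 11.62, 11.46 and 11.58 in the triple mutant, 12.29, 12.19, 12.15 and 12.10 in the htz-1 double mutant and 11.63, 11.66, 11.80 and 11.73 in htz-1. They were 10.89, 11.27, 11.63 and 11.29 in the daf-16 double mutant, 11.43, 11.08, 11.14 and 11.29 in daf-2 and 10.98, 10.97, 10.76 and 11.30 in wild type. All 4 libraries of the htz-1 double mutant lay above every other library, and the 12 libraries with the allele lay above all libraries without it except for daf-16 double mutant library 3 at 11.63. The 3 genotypes without the allele overlapped, at 11.27 ± 0.30 in the daf-16 double mutant, 11.24 ± 0.16 in daf-2 and 11.002 ± 0.22 in wild type (SD, n = 4 each). No comparison among them passed the test.

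The htz-1 allele raised gpdh-2 to 11.70 ± 0.08 in htz-1, against 11.002 ± 0.22 in wild type, by 0.70 ± 0.15 or 1.63-fold (limma, adjusted p = 0.000264). In daf-2 it raised it to 12.18 ± 0.08 in the htz-1 double mutant, against 11.24 ± 0.16 in daf-2, by 0.95 ± 0.15 or 1.93-fold (adjusted p = 1.55e-05, limma). Both rises appeared in 4 of 4 batches with no overlap and passed in every alternative. In the daf-16 double mutant the difference was 0.37 ± 0.15 (adjusted p = 0.0369, limma), with 11.64 ± 0.19 in the triple mutant and 11.27 ± 0.30 without the allele, overlap through daf-16 double mutant library 3 and a higher level in 3 of 4 batches. That call was lost in 10 of 21 alternatives (0.16 to 0.40, adjusted p 0.053 to 0.416, limma), among them those without library 1, 2 or 4 of the daf-16 double mutant or library 1 or 2 of the triple mutant. The difference was 0.16 without batch 1. The htz-1 double mutant was also 0.48 ± 0.15 above htz-1 (adjusted p = 0.0208, limma) and the triple mutant below the htz-1 double mutant by a difference of -0.54 ± 0.15 (adjusted p = 0.00656). The call against htz-1 was lost with libraries centred on their median (0.41, adjusted p = 0.0848, limma), without library 1 or 2 of htz-1, without library 1 of the htz-1 double mutant and without batch 1, 2 or 4 (0.42 to 0.52). The call of the triple mutant against the htz-1 double mutant was lost under centring (-0.43, adjusted p = 0.0521, limma) and without batch 2 (-0.53, adjusted p = 0.0582). Sperm markers were lower in htz-1 for 29 of 29 genes, with a mean of 8.04 to 8.37 in htz-1 and 11.43 to 12.25 in wild type. They were also lower in the htz-1 double mutant than in daf-2, and in the triple than in the daf-16 double mutant, for 29 of 29. Of 18 tested neuronal markers 6 were higher and none lower in htz-1 than in wild type, 11 and none in the htz-1 double mutant than in daf-2, and 6 and 1 in the triple than in the daf-16 double mutant. The counts were 6 and 0, 4 and 1, and 7 and 0 for 11 tested embryo markers. They were 1 and 12, 1 and 10, and 4 and 11 for 19 intestinal markers. Hypodermal markers (14 tested) had 2 and 7, 0 and 6, and 3 and 5. Muscle markers (20) had 4 and 3, 8 and 0, and 2 and 3. Oocyte and germline markers (21) had 1 and 4, 0 and 4, and 6 and 1. Of all 14482 genes 3830, 2950 and 3487 were higher and 3552, 2918 and 3514 lower in the same comparisons. The mean level of the 20 neuronal markers was 6.87 to 6.97 in the triple mutant, 7.16 to 7.36 in the htz-1 double mutant and 6.89 to 7.22 in htz-1, against 6.39 to 6.67 in the daf-16 double mutant, 6.19 to 6.54 in daf-2 and 6.18 to 6.83 in wild type. Within genotypes gpdh-2 had r = -0.23 with the neuronal and -0.27 with the sperm markers (24 libraries). It had -0.48 with the intestinal, -0.34 with the muscle and -0.30 with the oocyte and germline markers. With the hypodermal and embryo markers r was -0.21 and -0.09. The part of any tissue in the gpdh-2 differences was not tested.

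**Figure D2:**
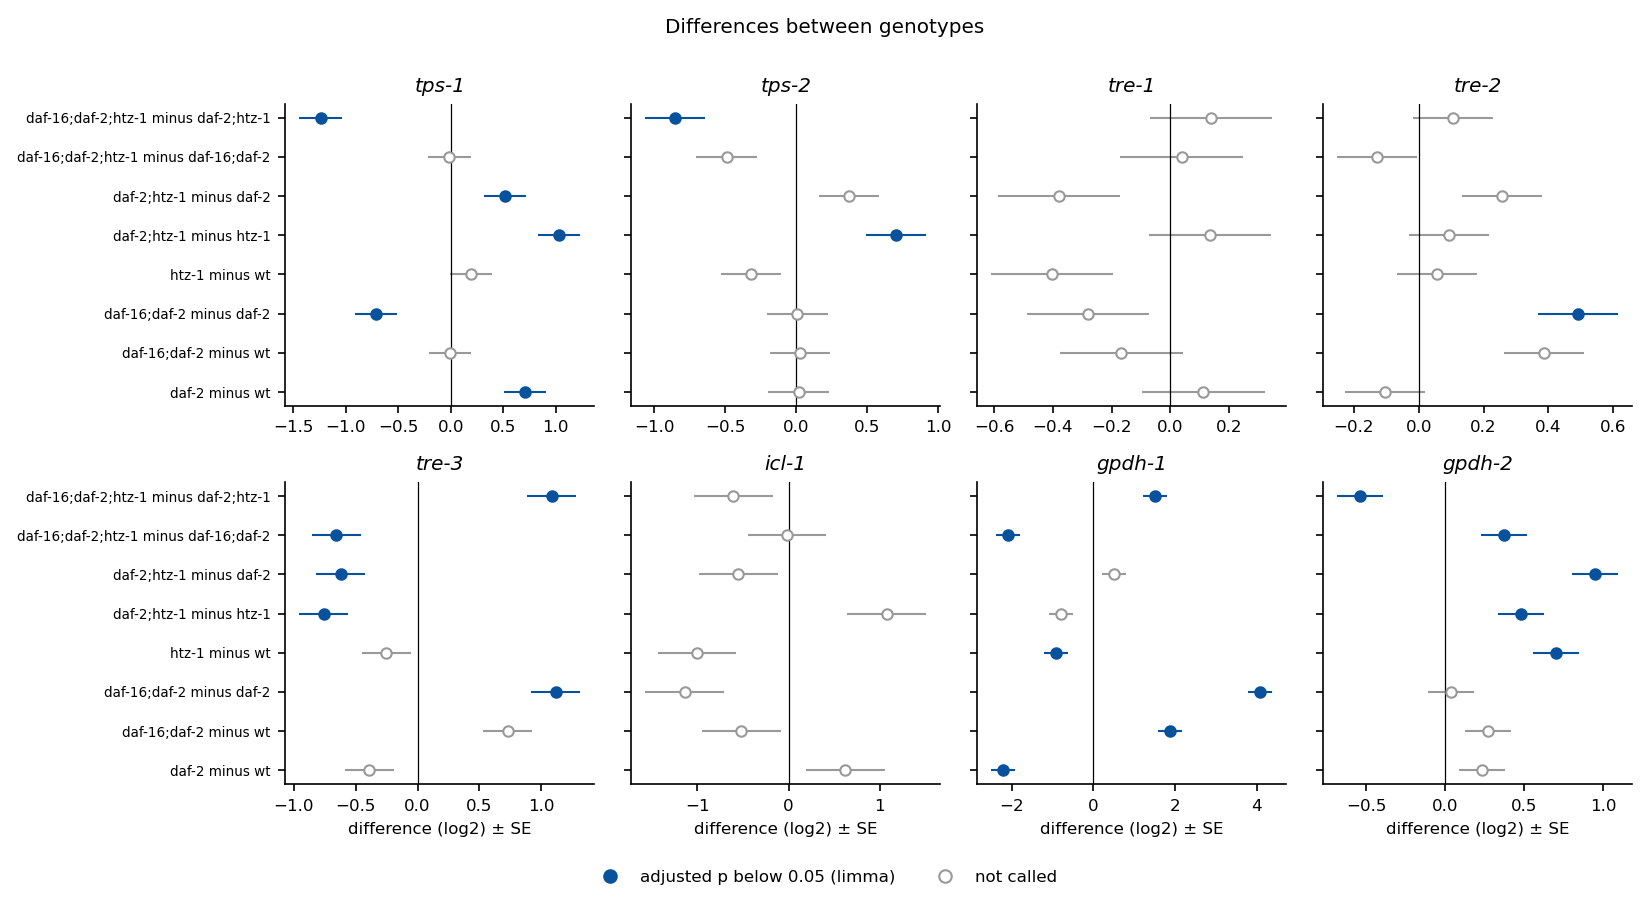
Difference in level (rlog, first genotype minus second) of each of the 8 enzymes in the 8 pairwise comparisons, with SE bars, filled where the adjusted p of limma is below 0.05. The values for gpdh-1 run from -2.21 in daf-2 minus wild type to 4.08 in daf-16;daf-2 minus daf-2, while no point of tre-1 or icl-1 is filled.

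The counts of enzymes called stand here beside the share called among all 14482 genes tested. In daf-2 against wild type 1 enzyme was higher and 1 lower of 8, where 12.4% of all genes were called. In the daf-16 double mutant against daf-2 it was 3 higher and 1 lower, where 25.7% were called. In the daf-16 double mutant against wild type it was 1 higher and none lower, where 1.19% were called. For the htz-1 allele 1 was higher and 1 lower in wild type, where 51.0% of all genes were called. It was 2 higher and 1 lower in daf-2, where 40.5% were called, and 1 higher and 2 lower in the daf-16 double mutant, where 48.3% were called. In the htz-1 double mutant against htz-1, 3 were higher and 1 lower, where 19.6% were called. In the triple mutant against the htz-1 double mutant 2 were higher and 3 lower, where 30.2% were called. With 8 enzymes, a single call moves the share of enzymes called by 12.5 percentage points, and no count was tested against the share of all genes. The median difference of the 8 lay between -0.29 and 0.31 in these comparisons, beside -0.06 to 0.04 for all genes.

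The htz-1 effect, the level with the allele minus that without it, was compared between backgrounds. For gpdh-1 the effect was -2.08 ± 0.29 in the daf-16 double mutant, or 0.236-fold (limma, adjusted p = 1.73e-06), 0.50 ± 0.29 in daf-2 (adjusted p = 0.18) and -0.91 ± 0.29 in wild type (adjusted p = 0.0119). The batches gave -3.37 to -1.49 in the daf-16 double mutant, 0.31 to 0.80 in daf-2 and -1.17 to -0.71 in wild type, so that no batch in daf-2 had the sign of the other backgrounds. The effect in the daf-16 double mutant minus that in daf-2 was -2.58 ± 0.41 (adjusted p = 0.000107, limma), which passed in every alternative. The effect in daf-2 minus that in wild type was 1.41 ± 0.41 (adjusted p = 0.025, limma). It lost its call in 8 of 29 alternatives (1.16 to 1.51, adjusted p 0.0534 to 0.123), those without daf-2 library 1, htz-1 double mutant library 2 or 4, wild-type library 3, htz-1 library 4, and batch 1, 2 or 4. The fall in wild type lost its call without htz-1 library 4 (-0.70, adjusted p = 0.0624) or batch 4 (-0.82, adjusted p = 0.0549, limma). Intestinal markers were lower in htz-1 than in wild type for 12 of 19 and higher for 1, with a mean level of 12.35 to 12.88 in htz-1 and 13.35 to 13.89 in wild type. With the allele in daf-2, where gpdh-1 was higher in 4 of 4 batches, 10 of the 19 were also lower and 1 higher, and in the daf-16 double mutant 11 were lower and 4 higher. Of all 14482 genes 3552 were lower with the allele in wild type, 2918 in daf-2 and 3514 in the daf-16 double mutant. Sperm markers were lower with the allele for 29 of 29 in each background. The htz-1 effect in daf-2 was called above that in wild type for 16 of 29 sperm and 4 of 20 muscle markers. So it was for 3 intestinal and 1 of 18 neuronal markers. It was called below for 6 of 11 embryo, 3 of 14 hypodermal and 1 of 21 oocyte and germline markers. None of these lists had calls both ways, and of all genes 1126 were higher and 806 lower. The effect in the daf-16 double mutant was called below that in daf-2 for 21 sperm, 7 muscle and 4 neuronal markers. It was called above for 7 oocyte and germline, 6 embryo and 4 hypodermal markers. Again none of these lists had calls both ways. For intestinal markers it was below for 4 and above for 2, and of all genes 2389 were lower and 1449 higher. The part of any tissue in the gpdh-1 effect was not tested. For the htz-1 effect in daf-2 minus that in wild type, gpdh-1 was the only one of the 8 enzymes called. Of all genes 13.3% were called there.

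**Figure D3:**
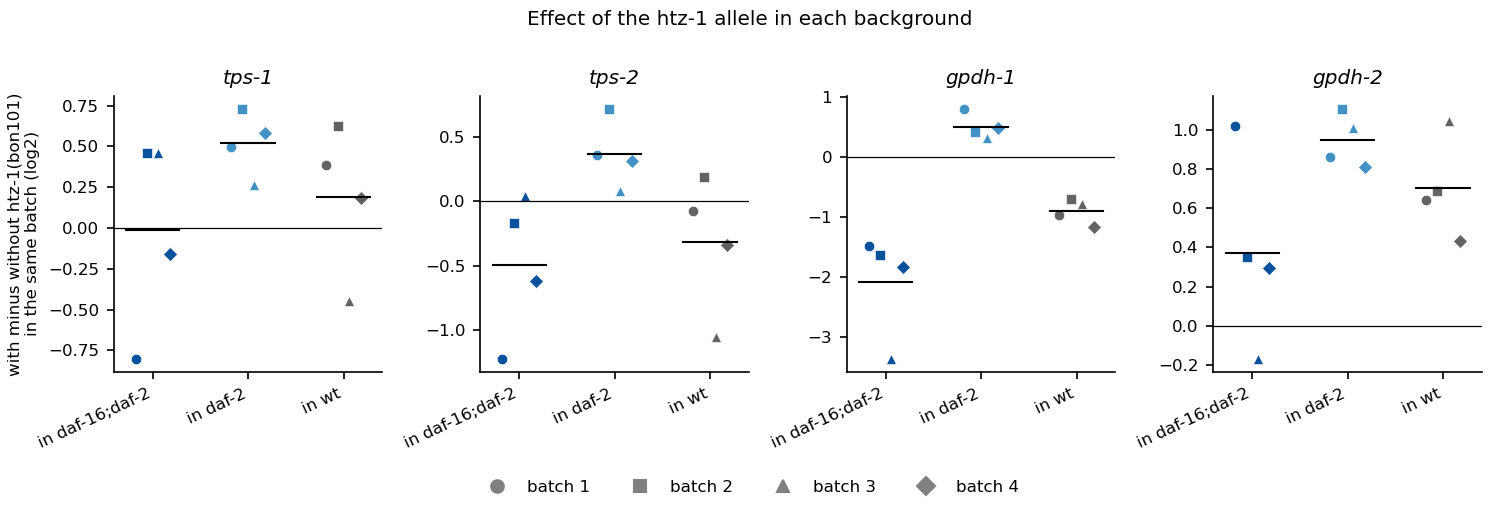
Level with the htz-1 allele minus level without it (rlog) in each of 4 batches for tps-1, tps-2, gpdh-1 and gpdh-2, in the daf-16;daf-2, daf-2 and wild-type backgrounds, with a bar at the mean. The 4 batches of gpdh-1 lie between 0.31 and 0.80 in daf-2 and below -0.70 in both other backgrounds, and those of gpdh-2 lie above 0.43 in daf-2 and wild type.

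Between the daf-16 double mutant and daf-2, where 26.5% of all genes were called, 3 enzymes had a lower htz-1 effect in the daf-16 double mutant and none a higher one. Beside gpdh-1, one was the synthase gene tps-2, with an effect of -0.49 in the daf-16 double mutant and 0.37 in daf-2 (difference -0.86 ± 0.30, adjusted p = 0.0358, limma). The other was gpdh-2, with 0.37 in the daf-16 double mutant and 0.95 in daf-2 (difference -0.57 ± 0.21, adjusted p = 0.0408, limma). With batch as a replicate block the adjusted p of gpdh-2 was 0.0518. For tps-2 the effect in daf-2 minus that in wild type was 0.69 ± 0.30 (0.37 in daf-2 and -0.32 in wild type, adjusted p = 0.135, limma), which passed in none of 29 alternatives. The call of tps-2 was lost in 15 of 29 alternatives (-0.88 to -0.58, adjusted p up to 0.19, limma), among them those without library 1, 2 or 4 of the triple mutant, 2 or 4 of the htz-1 double mutant, 1, 3 or 4 of the daf-16 double mutant and 1 or 2 of daf-2. The call of gpdh-2 was lost in 20 of 29 (-0.60 to -0.30, adjusted p up to 0.357, limma), among them those without library 2, 3 or 4 of the triple mutant, any library of the htz-1 double mutant, 2, 3 or 4 of the daf-16 double mutant and 2 or 3 of daf-2. With each library centred on its median the all-gene median of this comparison shifted by 0.28, and the differences were -0.58 for tps-2 (adjusted p = 0.176) and -0.30 for gpdh-2 (adjusted p = 0.357, limma). The corresponding difference of tps-1 was -0.53 ± 0.28 (adjusted p = 0.172, limma), and without triple-mutant library 3 it was -0.73 (adjusted p = 0.0379).

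Within genotypes, tps-1, tps-2 and icl-1 went up and down together from library to library. Taking each library as its deviation from its genotype mean, tps-1 and tps-2 had a Pearson r of 0.948 (Spearman rho 0.879, 24 libraries), the highest of tps-1 with any of the 14481 other tested genes. For tps-1 and icl-1 r was 0.889 (rho 0.877) and for tps-2 and icl-1 0.917 (rho 0.84). The libraries share batches and their own depth and tissue makeup, so these values are a description. The triple mutant and batch 3 held the widest deviations, icl-1 reaching 1.71 and tps-2 0.73 above the mean in triple-mutant library 3. The 2 libraries farthest out for tps-1 were numbers 1 and 3 of the triple mutant. Without the 4 triple-mutant libraries the 3 values were 0.935, 0.913 and 0.899 (20 libraries). Without batch 3 they were 0.924, 0.801 and 0.732 (18 libraries), and without both 0.919, 0.909 and 0.788 (15 libraries). In these subsets tps-2 ranked 2, 5 and 10 for tps-1 among the 14481 other genes, and icl-1 ranked 302 without batch 3. Over all 24 libraries the other pairs of the 8 enzymes reached at most 0.33 (tre-2 and gpdh-1). Without the triple mutant tps-2 and tre-2 reached 0.628, and without both the triple mutant and batch 3 tps-1 and gpdh-1 reached 0.607. The glycerol enzyme gpdh-2 ran the other way over all 24 libraries, with -0.54 against tps-1 and -0.62 against tre-1. The mean level of the intestinal markers moved with them (r = 0.769 with tps-1, 0.731 with tps-2 and 0.651 with icl-1), as did that of 15 hypodermal markers (0.620, 0.660 and 0.711), which stood at 8.18 in triple-mutant library 3 and at 6.34 to 6.57 in the others of its genotype. The part of these tissues in the shared deviations was not tested. The median of all genes in the library did not move with them (r = -0.04, -0.03 and 0.10).

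**Figure D4:**
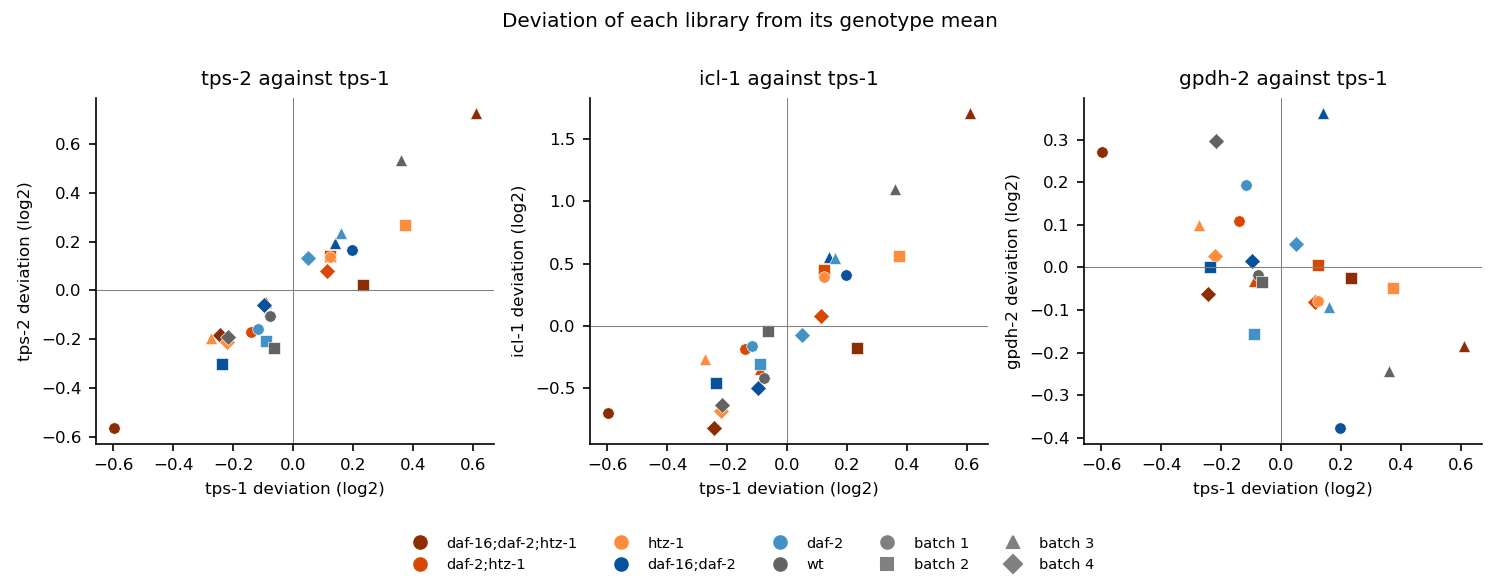
Deviation of each library from its genotype mean (rlog) for tps-2, icl-1 and gpdh-2 against that for tps-1, coloured by genotype and shaped by batch. The points of tps-2 and icl-1 rise with tps-1 (r = 0.948 and 0.889) and those of gpdh-2 fall (r = -0.54).

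The remaining trehalose genes were the phosphatase gene gob-1 and the trehalase genes tre-4 and tre-5. With them 1 of 8 trehalose genes was higher and none lower in daf-2 than in wild type (tps-1), 2 were higher and 2 lower in the daf-16 double mutant than in daf-2, and 1 was higher in htz-1 than in wild type. Of all genes 12.4%, 25.7% and 51.0% were called in these comparisons. The gene called in htz-1 was tre-5, which rose by 1.63 ± 0.38 in htz-1 against wild type (adjusted p = 0.000773, limma) and fell in the daf-16 double mutant against daf-2 (difference -1.17 ± 0.38, adjusted p = 0.0248, lost in 9 of 20 alternatives). The medians of the 8 were 0.13, -0.08 and 0.09 in these 3 comparisons, beside -0.03, 0.03 and 0.03 for all genes.

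Of 24 genes of the tricarboxylic acid cycle, which shares steps with the glyoxylate cycle, 16 were lower and 1 higher in htz-1 than in wild type, with a median difference of -0.64, where 3552 of all 14482 genes were lower. The aconitase gene aco-1, whose product makes the substrate of isocitrate lyase, fell by a difference of -1.53 ± 0.27 (adjusted p = 3.8e-05, limma) and the isocitrate dehydrogenase gene idh-1 by -1.13 ± 0.16 (adjusted p = 2.15e-06), while idhg-2 rose by 0.72 ± 0.18 (adjusted p = 0.00148). The count of lower genes was 11 after centring or quantile normalization and 10 without wild-type library 3 or without batch 3. In the daf-16 double mutant 8 of the 24 were higher than in daf-2 and none lower, among them the succinyl-CoA ligase gene sucl-1 (1.03 ± 0.20, adjusted p = 0.00051, limma) and idhb-1 (0.75 ± 0.18, adjusted p = 0.00349). Of all 14482 genes 2319 were higher. That count was 3 after centring and 2 to 8 with a library or a batch left out, lowest without batch 2. In daf-2 5 of the 24 (none without wild-type library 3) were lower than in wild type, as were 862 of all 14482 genes. Those with the smallest p were sucl-1 (-0.76 ± 0.20, adjusted p = 0.0113, limma) and idh-1 (-0.60 ± 0.16, adjusted p = 0.0137).

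Of the 5 gluconeogenesis genes, pck-1, a phosphoenolpyruvate carboxykinase gene, followed tps-1 in the daf-2 comparisons. It was 1.196 ± 0.28 higher in daf-2 than in wild type (adjusted p = 0.00548, limma), lower in the daf-16 double mutant than in daf-2 (difference -1.11 ± 0.28, adjusted p = 0.00589), and 0.97 ± 0.28 higher in htz-1 than in wild type (adjusted p = 0.00591). It was the only gene of the 5 called in the first 2 of these, while in htz-1 3 others were lower, among them pck-3 (-2.33 ± 0.37, adjusted p = 9.22e-06, limma) and the pyruvate carboxylase gene pyc-1 (-1.09 ± 0.22, adjusted p = 0.000195). Of all genes 12.4%, 25.7% and 51.0% were called in these comparisons. The first and the last of these pck-1 calls were lost without batch 4 and without batch 2 (adjusted p = 0.0661 and 0.11, limma). Of 18 glycolysis genes none was called in daf-2 against wild type or in the daf-16 double mutant against daf-2, where 7 were lower under quantile normalization. In htz-1 8 of the 18 were lower than in wild type and none higher, where 3552 of all 14482 genes were lower. These included pfk-1.2 (-3.04 ± 0.44, adjusted p = 2.85e-06, limma) and gpd-2 (-0.98 ± 0.20, adjusted p = 0.000271), which may share reads with the near-identical gpd-3 and is uncertain. The count of 8 was 5 after centring, 4 without batch 3 and 5 without wild-type library 3. Of 6 glycogen genes none was called in daf-2. The gene gyg-1, a glycogenin gene, was 0.71 ± 0.20 higher in the daf-16 double mutant than in daf-2 (adjusted p = 0.0132, limma). There gyg-2 and agl-1 were lower (-0.77 ± 0.21, adjusted p = 0.00887, and -0.74 ± 0.27, adjusted p = 0.0455). With the replicate block the adjusted p of agl-1 was 0.053, and centring removed the call of gyg-1 (0.54, adjusted p = 0.0558). In htz-1 gyg-1 was lower than in wild type (-0.64 ± 0.20, adjusted p = 0.0107, limma), without a call when htz-1 library 1, wild-type library 3 or batch 4 was left out.

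Around gpdh-1 and gpdh-2, 12 genes of glycerol and osmolyte handling were measured and 11 were tested. In daf-2 against wild type 2 were higher and 2 lower, and in the daf-16 double mutant against daf-2 4 were higher and 1 lower. In htz-1 against wild type 4 were higher and 5 lower, with a median difference of -0.85. Of all genes 12.4%, 25.7% and 51.0% were called in these 3 comparisons. Beside gpdh-1, the aquaporin gene aqp-8 was lower in daf-2 than in wild type (-1.75 ± 0.32, adjusted p = 0.000531, limma) and in htz-1 than in wild type (-1.26 ± 0.32, adjusted p = 0.00213). The myo-inositol transporter gene hmit-1.1, another gene known to be induced by hypertonic stress, was 2.90 ± 0.40 higher in the daf-16 double mutant than in daf-2 (adjusted p = 1.13e-05, limma). In htz-1 against wild type the phosphoglycolate phosphatase genes pgph-2 (1.60 ± 0.20, adjusted p = 4.54e-07, limma) and pgph-3 (1.53 ± 0.22, adjusted p = 2.34e-06) rose and the aquaporin gene aqp-1 fell (-3.07 ± 0.39, adjusted p = 4e-07). In daf-2 against wild type pgph-2 rose by 0.90 ± 0.20 (adjusted p = 0.00389, limma) and hmit-1.3 by 1.15 ± 0.29 (adjusted p = 0.00906). In the daf-16 double mutant hmit-1.3 was below daf-2 (-0.84 ± 0.29, adjusted p = 0.0351, limma), a call lost in 8 of 21 alternatives.

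The list of 12 tested regulators of the osmotic response held genes whose loss is known to raise gpdh-1, the secreted proteins osm-7 and osm-11 and the furrow collagens. In daf-2 against wild type only osm-7 was called, with -1.18 ± 0.26 (adjusted p = 0.00278, limma), and in the daf-16 double mutant against daf-2 it was higher (1.03 ± 0.26, adjusted p = 0.00513). There dpy-9 and osm-11 were lower (-1.14 ± 0.40, adjusted p = 0.0376, and -0.96 ± 0.34, adjusted p = 0.0381). The last 2 calls were lost in 10 and 12 of 21 alternatives. In htz-1 against wild type the collagen genes dpy-7 (4.95 ± 0.71, adjusted p = 2.62e-06, limma) and dpy-10 (2.38 ± 0.27, adjusted p = 6.99e-08) rose, and dpy-8 (-1.38 ± 0.45, adjusted p = 0.0123) and osm-7 (-0.70 ± 0.26, adjusted p = 0.0259) fell, the last losing its call in 7 of 21 alternatives. Of all genes 12.4%, 25.7% and 51.0% were called in these comparisons, in the order given. Markers of embryos, where furrow collagens are also made, averaged 5.26 to 5.36 in htz-1 and 3.30 to 3.48 in wild type over 19 genes. Of 11 tested 6 were higher in htz-1 and none lower, where 3830 of all 14482 genes were higher. Of the embryo markers med-1, med-2, tbx-37 and hlh-27 had a mean below 1. The part of embryos in these differences was not tested.

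**Figure D5:**
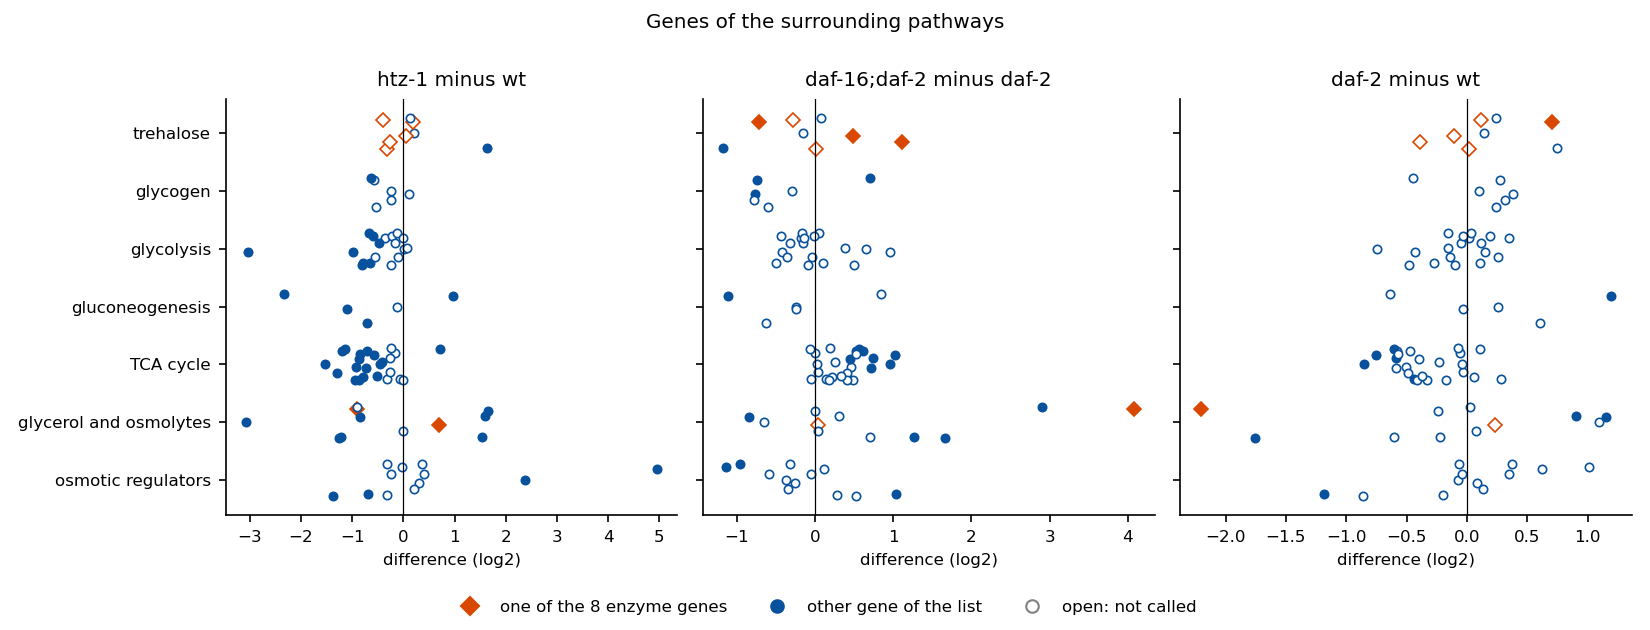
Difference in level (rlog) of every tested gene of 7 pathway lists in htz-1 minus wild type, daf-16;daf-2 minus daf-2 and daf-2 minus wild type, with the 8 enzymes as diamonds and genes called by limma (adjusted p below 0.05) filled. In htz-1 minus wild type 16 of the 24 tricarboxylic acid cycle genes are called lower and 1 higher, and in daf-16;daf-2 minus daf-2 8 are called higher.

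Over the 24 libraries, the genes whose levels ran closest to each enzyme were as follows, by Pearson r and as a description, since the 6 genotypes set most of it. For tps-1 they were che-10 (0.935) and ptr-20 (0.920), and for tps-2 unc-43 (0.847) and clh-4 (0.845). The trehalase tre-1 had cdc-25.1 and cogc-2 (0.922 each), tre-2 had pho-4 (0.848) and pgrn-1 (0.791), and tre-3 had F56F10.1 (0.919) and T09B4.8 (0.915). The closest to icl-1 was the phosphoenolpyruvate carboxykinase gene pck-2 (0.886), followed by lfi-1 (0.872). For gpdh-1 they were pgp-6 (0.940) and dod-17 (0.931), and for gpdh-2 nmad-1 (0.951) and C27H5.2 (0.942). Among the 8 themselves the closest pair over all libraries was tps-1 and tps-2 (0.773), and tps-1 and tre-3 ran against each other (-0.67).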

How the data were processed

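RNA from whole young adults was extracted with Trizol and a miRNeasy Micro kit and made into libraries with SMART-Seq2, which does not mark strand, per the labels' protocols. The values the authors deposited are, as the file name has it, regularized log2 (rlog) transforms of normalized counts, 1 per gene and library. Per the submitters' processing notes the tools were bcl2fastq 2.20 and kallisto 048.0 and the build was WBcel235, with no role or order stated. No source used here says how the rlog values were made or whether a batch correction was applied. The transformation shrinks differences of genes with few reads, and the values hold no counts, so depth and counting error are unknown and no count test was run.

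Libraries were grouped by their labels, and 0 columns of values were left unused. Gene names and positions came from the WBcel235 annotation (Ensembl release 115). A linear model with 1 mean per genotype was fitted in limma 3.58.1 (R 4.3.3) to the 24 libraries together (18 residual degrees of freedom, intensity trend), over the 14482 genes with a mean of at least 3, with Benjamini-Hochberg adjustment over these genes, 2-sided tests and a threshold of 0.05. It gave 8 comparisons between genotypes and 2 differences of the htz-1 effect. The script was tested on simulated data. The sources do not say if the 4 libraries of a genotype are separate cultures, and p-values therefore measure only how these libraries spread. Folds are back-transformed rlog differences.

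The replicate numbers equal the labelled batch and so pair libraries. The deviations from the genotype means correlated at 0.0504 on average between genotypes within a batch (60 pairs) and at -0.0163 between batches (180 pairs). The alternatives were batch as a replicate block, no filter, a minimum mean of 5, quantile normalization, centring on the library median, array weights, robust variance, no intensity trend, only the compared groups in the fit, and each library or batch left out. Correlations without the triple mutant or batch 3 were added after seeing the data.

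The 8 enzymes and the gene lists (8 of pathways and DAF-16 targets, 7 of tissue markers) were chosen with earlier results of these data known. The genes named were the 8 enzymes, htz-1 and daf-16, up to 2 called genes per direction and pathway list with the smallest p in 3 comparisons, and the 2 genes closest in pattern to each enzyme. A few others (arl-3, F19H8.2, gadr-6, gob-1, tre-4 and the embryonic markers) are named as overlapping genes or list members.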

Additional observations from a re-analysis of the deposited data

Results flagged for a closer look

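The effect of the htz-1 allele differed between backgrounds by a test of the difference itself in 4 cases among the 8 enzymes. Of all genes 26.5% were called for this difference between the daf-16 double mutant and daf-2, and 13.3% between daf-2 and wild type. All 4 cases use the same libraries of daf-2 and the htz-1 double mutant. For gpdh-1 the effect was -2.08 in the daf-16 double mutant and 0.50 in daf-2, a difference of -2.58 ± 0.41 (adjusted p = 0.000107, limma), with the same sign in 4 of 4 batches. For gpdh-1 it was also 0.50 in daf-2 and -0.91 in wild type, a difference of 1.41 ± 0.41 (adjusted p = 0.025, limma, 4 of 4 batches). For tps-2 it was -0.49 in the daf-16 double mutant and 0.37 in daf-2, a difference of -0.86 ± 0.30 (adjusted p = 0.0358, limma, 4 of 4 batches). For gpdh-2 it was 0.37 in the daf-16 double mutant and 0.95 in daf-2, a difference of -0.57 ± 0.21 (adjusted p = 0.0408, limma, 3 of 4 batches). The gpdh-1 call between daf-2 and wild type was lost in 8 of 29 alternatives, that of tps-2 in 15 and that of gpdh-2 in 20. In none of the 48 groups of 4 libraries (8 enzymes in 6 genotypes) was a library apart from the others by Dixon's test.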

How the results depend on the processing

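Of 59 differences at least as large as their SE, 28 passed the test and 13 of these passed in every alternative tried. Among the 13 were gpdh-1 in daf-2 against wild type, in the daf-16 double mutant against daf-2 and wild type, in the triple mutant against the daf-16 and the htz-1 double mutant, and in the difference of its htz-1 effect between the daf-16 double mutant and daf-2. So did tre-3 in the daf-16 double mutant against daf-2, in the htz-1 double mutant against htz-1 and in the triple against the htz-1 double mutant. The others were gpdh-2 in htz-1 against wild type and in the htz-1 double mutant against daf-2, and tps-1 in the htz-1 double mutant against htz-1 and in the triple against the htz-1 double mutant. The other 15 lost their call in at least 1 alternative, and 14 differences gained one in at least 1. Of 1335 values under an alternative 1192 kept direction and call, 99 lost the call, 43 gained it and 1 changed sign, tre-2 in the triple against the daf-16 double mutant (-0.13, and 0.11 with libraries centred on their median, adjusted p = 0.595, limma), where neither passed the test. Centring moved the median of all genes by 0.24 there, by -0.16 in the daf-16 double mutant against daf-2, by -0.13 against wild type and by 0.11 in the triple against the htz-1 double mutant.

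The counts of enzymes called that moved by more than 1.5 times, or to or from 0, are given first, and smaller moves are left out (such as 3 in place of 2 higher in the htz-1 double mutant against daf-2 under quantile normalization). In the daf-16 double mutant against daf-2, 2 were lower (1 as reported) with the replicate block, centring, quantile normalization, array weights or only the groups compared, and against wild type 3 were higher (1 as reported) with array weights. In htz-1 against wild type 2 were lower (1) with the replicate block, array weights or only the groups compared. In the htz-1 double mutant against daf-2, 1 was higher (2) with no filter, centring or no intensity trend. In the triple against the daf-16 double mutant 0 were higher (1) with no intensity trend or only the groups compared. In the htz-1 double mutant against htz-1, 1 was higher (3) with centring, and 2 were lower (1) with the replicate block, centring, quantile normalization, array weights or only the groups compared. For the htz-1 effect in the daf-16 double mutant against daf-2, 1 was lower (3) with centring or no intensity trend. With a library or a batch left out, the counts higher and lower ranged over 0 to 1 and 1 to 1 in daf-2 against wild type, 2 to 3 and 0 to 2 in the daf-16 double mutant against daf-2, 1 to 2 and 0 to 0 against wild type, 1 to 1 and 0 to 3 in htz-1 against wild type, 1 to 2 and 0 to 2 in the htz-1 double mutant against daf-2, 0 to 1 and 1 to 3 in the triple against the daf-16 double mutant, 1 to 4 and 1 to 2 in the htz-1 double mutant against htz-1, and 2 to 2 and 2 to 4 in the triple against the htz-1 double mutant. They were 0 to 1 higher for the htz-1 effect in daf-2 against wild type and 1 to 3 lower for that in the daf-16 double mutant against daf-2. The cause of these changes was not tested. The replicate block changed the calls of icl-1 in 3 comparisons, of tps-2 in the triple against the daf-16 double mutant, of gpdh-1 in the htz-1 double mutant against htz-1 (adjusted p = 0.0454, limma), of gpdh-2 in 1 difference of the htz-1 effect and of agl-1, all given above, and no other call of an enzyme or named pathway gene. With the depth unknown, a difference that did not pass may be one these 4 libraries a genotype could not show.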
